A study of Rattus norvegicus with 20 samples.

Results

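Whole mesenteric arteries of the stroke-prone rat strain SHRSP/Izm were compared with those of the related strain SHR/Izm. The comparison took the 4 arrays titled as untreated SHRSP/Izm and the 4 titled as untreated SHR/Izm, 8 of the 20 arrays of the series, and no measured value entered that choice. All 8 samples were labelled as untreated and 6 weeks of age, and each array carried Cy3-labelled RNA of 1 sample that the labels call a biological replicate. The other 12 arrays were from WKY/Izm rats of the same labelled age. Of these, 4 were untreated, 4 were titled 2K1C and 4 were titled 1K1C, both kidney clip operations. All 20 arrays, the operated rats included, entered the fit that estimated the spread and the choice of probes kept. A treatment note shared by all samples speaks of WKY rats kept 3 weeks with or without an operation, and whether the 6 weeks are the age at its start or at sampling is not stated. The untreated WKY values are given side by side only, because those arrays lay on another slide.

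SHR, the spontaneously hypertensive rat, was bred from Wistar-Kyoto stock for high blood pressure, and SHRSP was then bred from SHR for a tendency to stroke. Both become hypertensive as young adults, and SHRSP reaches the higher pressure. The mesenteric artery feeds the gut, and its smooth muscle and endothelium set resistance to flow. No blood pressure was examined here.

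Array quality was alike in both strains. Between 66.5% and 71.7% of the spots of the 8 arrays were well above background, the software's flag for a usable signal, and no spot was saturated. All 8 arrays lay on 1 slide. SHR filled row 1 and SHRSP row 2, and an effect of the row cannot be told apart from that of the strain. A level below is the log2 signal less the log2 of the 75th percentile of its array, and differences are SHRSP minus SHR on that log2 scale with the standard error of the fit. Artery markers were present in both strains: the mean SHR and SHRSP levels were 6.15 and 6.18 for the smooth muscle myosin gene Myh11 and 3.46 and 3.62 for the endothelial adhesion gene Pecam1.

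Of the 8 arrays, 2 stood apart in the mean levels of some cell type marker lists. SHR replicate 1 had a mean level of 2.18 over 17 contractile smooth muscle genes, against 4.08 to 4.40 on the other SHR arrays and 3.32 to 4.34 in SHRSP. The same array had a mean of -0.95 over 7 mesothelial genes, against -4.17 to -2.83 on the other 7 arrays, and 4.20 over 13 white adipocyte genes, against 2.31 to 3.19. SHRSP replicate 4 had a mean of 0.30 over 6 lymphocyte genes, against -5.09 to -2.34 elsewhere, and -5.23 over 11 pancreatic and intestinal genes, against -1.61 to 0.73. Summed over the list on a linear scale, lymphocyte signal ran from 0.307 to 1.99 times the 75th percentile in SHR and from 0.286 to 13.8 in SHRSP. All measured members of these lists were detected on at least 1 of the 8 arrays. In such bulk RNA, fewer cells of a type and less RNA per cell cannot be told apart.

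**Figure D1:**
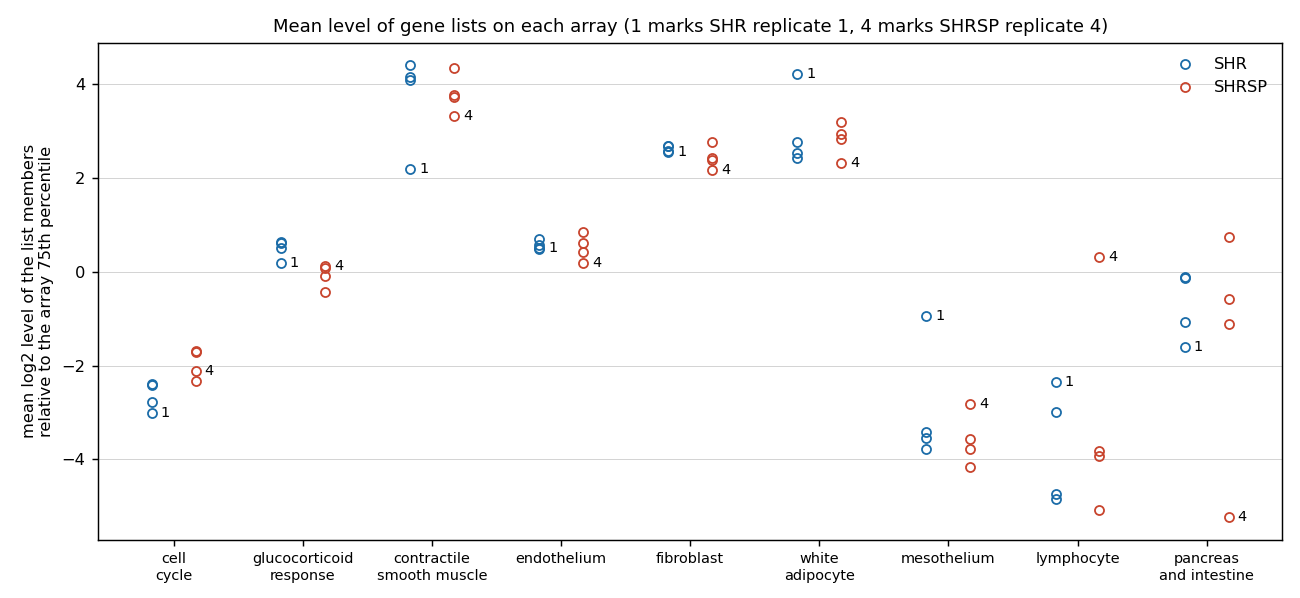
Mean log2 level of the members of 9 gene lists (horizontal axis) on each of the 4 SHR arrays (blue) and 4 SHRSP arrays (red), relative to the array 75th percentile (vertical axis). The number 1 marks SHR replicate 1, at 2.18 for contractile smooth muscle, and the number 4 marks SHRSP replicate 4, at 0.30 for lymphocytes.

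Few genes were called between the strains, but several of these differed by a large factor. Of 16410 genes tested, limma called 59 at a Benjamini-Hochberg adjusted p under 0.05, which is 0.360%: 34 higher in SHRSP (0.207%) and 25 lower (0.152%). For 14 of the 59 no array of the dim strain measured the probe well above background, and their folds are lower bounds. With those bounds, 39 of the 59 differed by at least 2-fold and 10 by at least 4-fold, with 4 of the latter higher and 6 lower in SHRSP. The SHRSP and SHR arrays did not overlap for 58 of the 59, against 3.51% of all genes tested, and 584 genes (3.56%) had an unadjusted p under 0.05. When each of the 8 arrays was left out in turn, 36 genes were called every time, 19 higher and 17 lower. Without SHR replicate 1 and SHRSP replicate 4 together, 45 genes were called, 40 of them among the 59. Scaling each array to its median in place of its 75th percentile turned the split to 26 higher and 31 lower. With array weights, which let some arrays count more than others, 815 genes were called, 526 higher and 289 lower. The total fell to between 38 and 39 when SHR replicate 4, SHRSP replicate 1 or SHRSP replicate 2 was left out. Genes called higher in SHRSP then numbered 21 or 22, and 22 without SHR replicate 2. In simulated data 54 of 100 genes changed by 1 on the log2 scale were called, so an uncalled gene need not be unchanged.

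**Figure D2:**
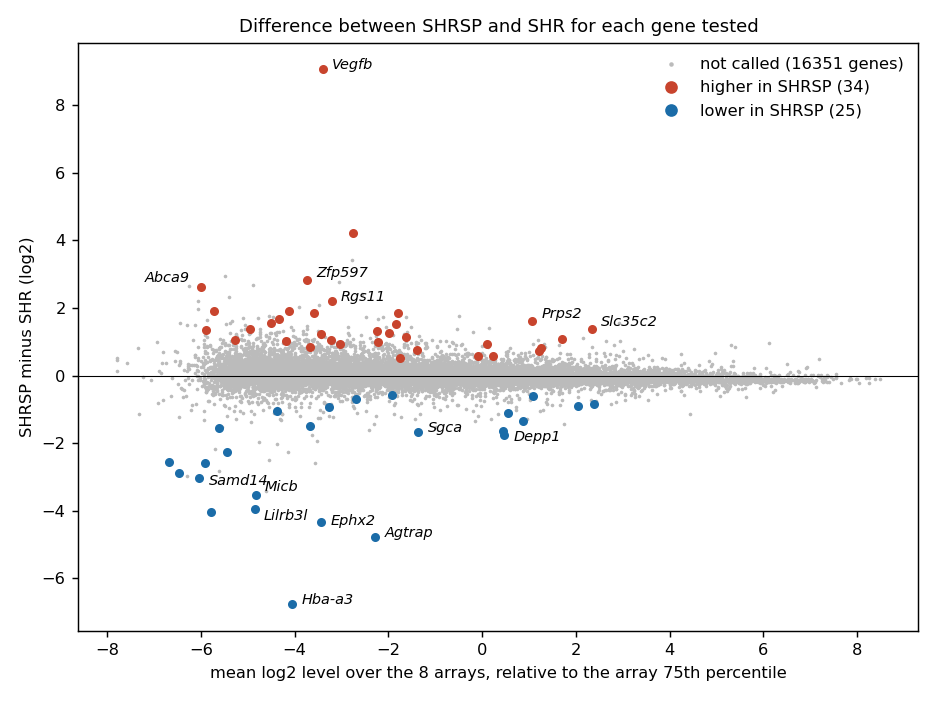
SHRSP minus SHR difference of each of the 16410 genes tested (vertical axis, log2) against its mean level over the 8 arrays (horizontal axis, log2 relative to the array 75th percentile). The 34 genes called higher in SHRSP are red and the 25 called lower are blue; Vegfb lies at 9.06 and Hba-a3 at -6.76, each against a strain not well above background.

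A single 60-base probe stood for most of these genes: 54 of the 59 had no other kept probe. For 21 of the 59 the tested probe had only 1 spot per array, among them Hba-a3, Depp1 and Serhl2. A strain difference in the target sequence under the probe and a difference in RNA amount cannot be told apart from these data. The following probes are shown because large strain differences rest on them and their letters read without a stop codon in at least 1 forward frame. They are written 5′ to 3′ as the array annotation gives them, on the rn4 build. The Ephx2 probe covers 2484 bases of chromosome 15 (chr15:45535737-45538220, minus strand), the Pxmp4 probe 5543 bases of chromosome 3 (chr3:145062012-145067554, minus strand) and the Rhd probe 1460 bases of chromosome 5 (chr5:153670884-153672343, plus strand), as probes that cross exon junctions do. Those of Zfp597 (chr10:11926184-11926243, plus strand) and Serhl2 (chr7:121146515-121146574, plus strand) are unbroken in the genome.
Ephx2: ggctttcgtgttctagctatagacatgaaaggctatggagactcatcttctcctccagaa
Pxmp4: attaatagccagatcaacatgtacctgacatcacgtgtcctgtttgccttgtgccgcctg
Rhd: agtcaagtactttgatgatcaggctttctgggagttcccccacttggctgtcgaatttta
Zfp597: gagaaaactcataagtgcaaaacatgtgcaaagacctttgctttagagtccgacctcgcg
Serhl2: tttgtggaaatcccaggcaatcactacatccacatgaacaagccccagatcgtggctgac

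The alpha globin probes form a pair in which 1 gene moved and its neighbour did not pass the test. The Hba-a3 probe lies at chr10:15559461-15559520 and the Hba-a1 probe 25.7 kb away at chr10:15585140-15585199, both on the minus strand. Capitals mark the longest run of 12 bases that both probes hold, and the Hba-a1 probe is shown from its start codon for its last 43 bases.
Hba-a3: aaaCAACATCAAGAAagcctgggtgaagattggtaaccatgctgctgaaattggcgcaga
Hba-a1: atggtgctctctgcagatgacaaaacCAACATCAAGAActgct
The Hba-a3 levels were 0.20, -1.49, -0.91 and -0.50 on the 4 SHR arrays and -6.50, -7.71, -7.53 and -8.01 on the 4 SHRSP arrays. No SHRSP array reached an SHR level, and none of the SHRSP arrays measured it well above background. Hba-a3 signal was thus at least 35.9-fold lower in SHRSP (limma adjusted p = 1.06e-07). The printed Hba-a1 probe had a mean of 3.12 ± 0.68 in SHR and 3.59 ± 1.00 in SHRSP (SD, n = 4 each), and the brighter Hba-a1 probe that entered the test differed by 0.02. Of the 9 measured erythroid genes, 2 were called, against 0.360% of all genes tested: Hba-a3 lower and Rhd, a blood group membrane protein gene, higher. The beta globin genes Hbb and Hbb-b1 differed by 0.00 and 0.12.

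Rhd levels were -4.80, -5.46, -4.98 and -5.02 in SHR and -2.78, -2.37, -3.34 and -4.16 in SHRSP, so the groups did not overlap. Its difference was 1.90 ± 0.37 (limma adjusted p = 0.0234). This call was lost when any of SHR replicates 2, 3 and 4 or SHRSP replicates 1, 2 and 3 was left out, with an adjusted p of up to 0.122. The Rhd call was lost also with quantile normalization, with or without normexp background correction. The summed signal of the 9 erythroid genes ran from 238 to 476 times the 75th percentile in SHR and from 164 to 522 in SHRSP.

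Among genes of vascular growth and vasoactive signalling, Vegfb, Agtrap and Rgs11 were called. They were 1 each of 10, 15 and 14 measured list members, against 0.360% of all genes tested. Over the 43 lists used here, 13 of 607 measured genes were called, and 31 lists had no called member. The lists were chosen with earlier results of these data known, so such shares cannot be read as enrichment. Vegfb encodes a ligand of the VEGF receptor Flt1 that acts on vessels, heart and fat tissue. Its levels were -7.74, -8.29, -8.13 and -7.56 in SHR and 1.18, 1.48, 1.17 and 0.71 in SHRSP, with WKY at 1.66 ± 0.71 (SD, n = 4). No SHR array was well above background, and on all SHRSP arrays the signal lay above the 75th percentile. SHRSP signal was at least 139-fold that of SHR (limma adjusted p = 1.24e-11); its probe lies at chr1:209657830-209657889 on the minus strand. The other 9 measured VEGF ligands and receptors were not called. Vegfa, the main endothelial mitogen, differed by -0.20 ± 0.22, Vegfc by -0.08, Pgf by -0.20, and the receptors Flt1 and Kdr by 0.18 and 0.17. The largest of the 9 was Vegfd, a lymphatic growth factor, at -1.14 (limma adjusted p = 0.25).

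Agtrap encodes a membrane partner of the main angiotensin II receptor of vessels, which it helps to internalize. Its levels were 0.15, -0.01, 0.01 and 0.26 in SHR and -4.36, -4.64, -5.11 and -4.62 in SHRSP, and WKY lay at 0.12 ± 0.31, beside SHR. All SHRSP arrays lay far below all SHR arrays, and 3 of the 4 still measured the probe above background. The difference of -4.78 ± 0.15 (27.5-fold, limma adjusted p = 1.52e-12) had the smallest p of the comparison. None of the other 14 measured genes of the renin-angiotensin system was called. The receptor gene Agtr1a differed by -0.20, the converting enzyme gene Ace by -0.42 and the angiotensin precursor gene Agt by 0.43. Each had a standard error between 0.24 and 0.43.

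Rgs11, which speeds the turn-off of G-protein signals, had levels of -5.21, -3.98, -3.92 and -4.15 in SHR and -2.13, -2.20, -1.71 and -2.40 in SHRSP. The groups did not overlap, and WKY at -4.57 ± 0.57 lay with SHR. The difference was 2.21 ± 0.37, or 4.61-fold (limma adjusted p = 0.00708). The other 13 measured RGS genes were not called, among them the smooth muscle regulators Rgs2 at -0.36 ± 0.27 and Rgs5 at -0.51 ± 0.48.

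Single members were called in the lists of epoxide and prostanoid metabolism, peroxisome membrane and import, and ABCA transporters. These were 1 of 18, 1 of 19 and 1 of 7 measured genes, against 0.360% of all genes tested. Ephx2, the soluble epoxide hydrolase that inactivates vasodilator epoxyeicosatrienoic acids, had levels of 0.10, -1.29, -1.86 and -2.03 in SHR and -5.73, -5.43, -5.43 and -5.84 in SHRSP. None of the SHRSP arrays measured it well above background, and WKY at -0.71 ± 0.63 overlapped SHR. The signal was at least 20.2-fold lower in SHRSP (limma adjusted p = 2.67e-05). The microsomal enzyme gene Ephx1 differed by -0.35 ± 0.19, and none of the other 17 measured genes of epoxide and prostanoid metabolism was called.

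Pxmp4, a peroxisome membrane protein gene, had levels of -2.05, -2.82, -3.07 and -2.93 in SHR and -0.73, -0.65, -0.95 and -1.09 in SHRSP, and differed by 1.86 ± 0.22 (limma adjusted p = 0.00016). Here WKY at -0.53 ± 0.29 lay beside SHRSP. The other 18 measured peroxisome membrane and import genes ranged from -0.22 to 0.31. Abca9, a lipid transporter gene, was detected on all SHRSP arrays at -4.75, -4.63, -4.53 and -4.82 and on no SHR array, where the signals were -7.17, -7.30, -7.29 and -7.48. It was at least 2.47-fold higher in SHRSP (limma adjusted p = 8.45e-05), and the other 6 measured ABCA genes were not called. Serhl2, a serine hydrolase-like gene of no list, rose by 1.85 ± 0.26, from a mean of -4.52 ± 0.38 in SHR to -2.67 ± 0.45 in SHRSP, with WKY at -2.25 ± 0.47.

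**Figure D3:**
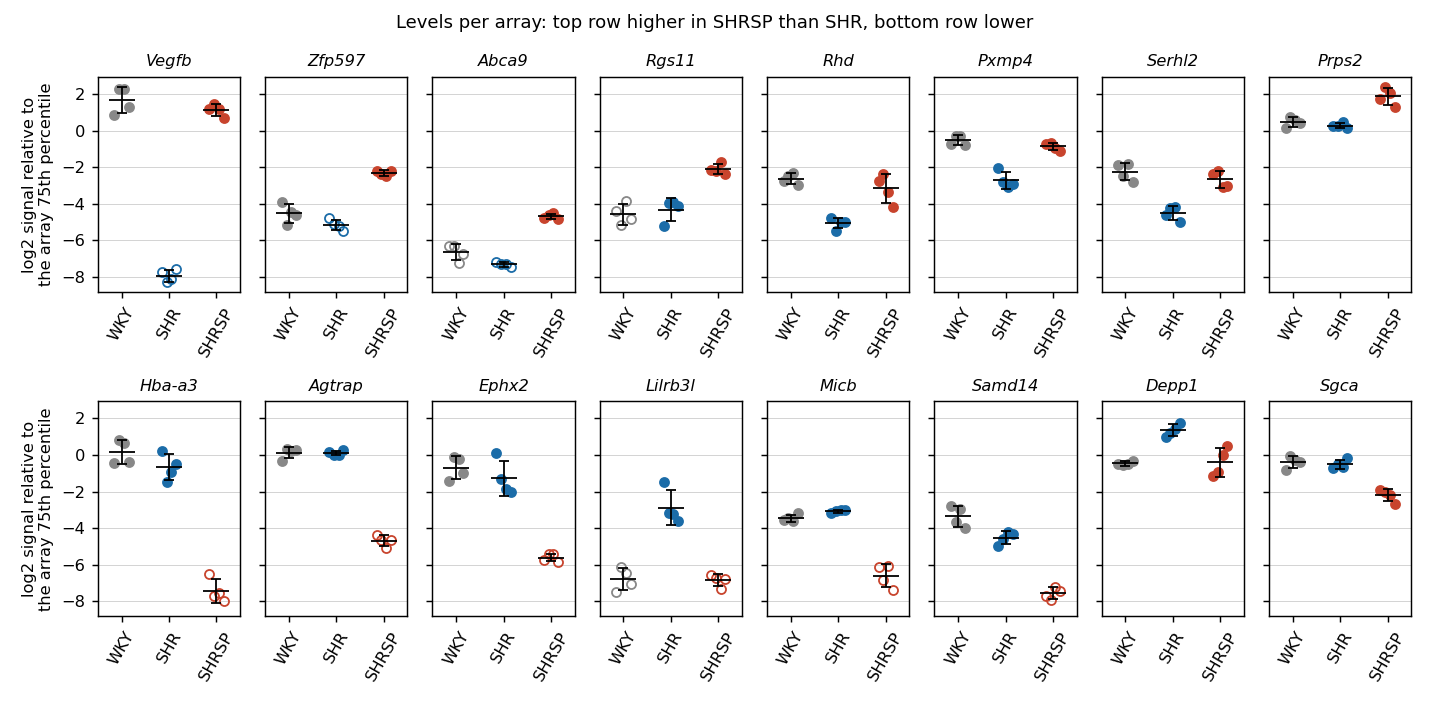
Log2 level on each array (points, vertical axis, relative to the array 75th percentile) of 16 genes in untreated WKY, SHR and SHRSP, with the mean and SD of the 4 arrays in black. Open points mark strains in which the probe was not well above background on all 4 arrays; Vegfb in SHR, at -8.29 to -7.56, and Hba-a3 in SHRSP, at -8.01 to -6.50, lay far from the other strains.

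Immune genes among the 12 largest falls of genes with a symbol were Lilrb3l, Micb, Pglyrp1 and Msr1. Lilrb3l, of the leukocyte immunoglobulin-like receptor family, had levels of -1.46, -3.19, -3.25 and -3.59 in SHR and -6.56, -6.70, -7.32 and -6.77 in SHRSP. It was at least 7.81-fold lower in SHRSP (limma adjusted p = 9.97e-05), and WKY at -6.77 ± 0.60 was as dim as SHRSP. Micb, of the same family as class I histocompatibility proteins, had levels of -3.20, -3.06, -3.02 and -3.02 in SHR and -6.12, -6.84, -6.05 and -7.36 in SHRSP. Its signal was at least 6.80-fold lower in SHRSP (limma adjusted p = 1.06e-07). The other 15 measured antigen presentation genes ranged from -0.12 to 0.42 and were not called.

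Pglyrp1, which binds bacterial peptidoglycan, fell by 1.05 ± 0.16, from -3.85 ± 0.23 in SHR to -4.90 ± 0.20 in SHRSP. The Pglyrp1 call was lost on unscaled signals (limma adjusted p = 0.319) and in a fit of the 8 arrays alone (0.0517). Msr1, a macrophage scavenger receptor, fell by 0.94 ± 0.19 (limma adjusted p = 0.0412), from -2.79 ± 0.15 to -3.73 ± 0.16. The Msr1 call was lost when any 1 of the 8 arrays was left out, with an adjusted p of up to 0.2. None of 12 measured macrophage genes of the marker list was called, and their mean level ran from -0.49 to 1.04 on the SHR arrays and from -0.81 to 1.00 on the SHRSP arrays.

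Of the dystrophin complex of muscle cells, Sgca passed the test, 1 of 12 measured genes against 0.360% of all genes tested. It encodes alpha-sarcoglycan, part of the complex that links dystrophin to the cell membrane. Its levels were -0.71, -0.51, -0.69 and -0.18 in SHR and -1.91, -2.04, -2.17 and -2.67 in SHRSP, with WKY at -0.39 ± 0.32. The groups did not overlap, and Sgca fell by 1.67 ± 0.22 (limma adjusted p = 0.000397). The other 11 measured genes of the dystrophin complex were not called, with Sgcb at -0.11, Sgcd at 0.36 and Dmd at 0.39. None of the 17 measured contractile genes was called, and their median difference of 0.02, with 10 higher, became -0.21, with 1 higher, without SHR replicate 1 and SHRSP replicate 4.

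Other large differences fell on genes of varied function. Zfp597, a zinc finger protein gene, had levels of -4.80, -5.11, -5.19 and -5.48 in SHR and -2.21, -2.39, -2.48 and -2.19 in SHRSP. It rose by 2.83 ± 0.23, or 7.09-fold (limma adjusted p = 7.98e-07), and WKY at -4.53 ± 0.52 lay near SHR. Prps2, which makes the ribose donor of nucleotide synthesis, rose by 1.61 ± 0.22, from 0.26 ± 0.13 to 1.87 ± 0.46. Mettl2, a tRNA methyltransferase gene, rose by 1.54 ± 0.20 and Slc35c2, a transporter of the Golgi membrane, by 1.36 ± 0.22. For these 3 genes WKY lay nearer to SHR. The Slc35c2 call was lost in the fit of the 8 arrays alone (limma adjusted p = 0.0578).

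The protocadherin gene Pcdhga8 rose by 1.91 ± 0.35, but its call was lost without SHR replicate 4 or SHRSP replicate 1, with an adjusted p of up to 0.0640, and 7 other measured clustered protocadherins were not called. Vwa7 rose by 1.57 ± 0.33 (limma adjusted p = 0.0472). The Vwa7 call was lost when any array except SHR replicate 1 was left out, with an adjusted p of up to 0.193. Neither Samd14 nor Zfp108 was well above background on any SHRSP array, and both fell, Samd14 by at least 2.49-fold and Zfp108, a zinc finger gene, by at least 1.98-fold. The Zfp108 call was lost with normexp and quantile normalization (limma adjusted p = 0.133). Yipf4, a Golgi membrane protein gene, fell by 1.12 ± 0.14, but a second kept probe of it differed by 0.05, and the mean of both probes was not called (limma adjusted p = 0.276). For 4 of the 5 called genes with another kept probe, that probe moved the same way.

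Genes of cell division were higher in SHRSP throughout the list, although none was called. All 36 measured members had a higher mean in SHRSP, against 47.4% of all genes tested, and their median difference was 0.80, against -0.01 over all genes. With normexp background correction and quantile normalization the median was 0.41. At an unadjusted p under 0.05 lay 23 of the 36, all higher in SHRSP, against 2.02% of all genes, and 10 had higher SHRSP arrays without overlap, against 1.65%. As this list too was chosen with earlier results of these data known, these shares cannot be read as enrichment. The mean level of the list was -3.01, -2.79, -2.41 and -2.40 in SHR and -1.68, -1.71, -2.33 and -2.12 in SHRSP. The strains did not overlap, but SHRSP replicate 3 lay just above the highest SHR array, while SHRSP replicates 1 and 2 lay well above. In WKY the mean levels were -2.53, -2.73, -2.91 and -2.19.

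The members with the lowest adjusted p were Ttk and Cdc20. Ttk, a kinase of the spindle checkpoint, had levels of -4.68, -4.14, -3.98 and -3.72 in SHR and -2.72, -2.73, -3.45 and -3.33 in SHRSP, a difference of 1.07 ± 0.24 (limma adjusted p = 0.0691). Cdc20, which activates the anaphase ligase, differed by 0.63 ± 0.14 (limma adjusted p = 0.0776), and the checkpoint kinase gene Bub1b by 1.21 ± 0.32 (limma adjusted p = 0.249). The proliferation antigen gene Mki67 had levels of -1.31, -1.07, -0.57 and -1.06 in SHR and 0.27, 0.14, -0.63 and -0.17 in SHRSP, and differed by 0.91 ± 0.23 (limma adjusted p = 0.202). Its SHRSP replicate 3 lay within the SHR range. Among genes of DNA replication Mcm2, Mcm5 and Mcm6 differed by 0.40, 0.64 and 0.29, Tyms by 0.12 and Pcna by 0.02, none of them called.

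Among all genes tested, 2 further division genes were called, chosen here after their values were seen: Cdca2 at 1.39 and Espl1, which encodes separase, at 1.05. The Cdca2 call was lost without SHR replicate 1, 2 or 4 or SHRSP replicate 1, 2 or 3, with an adjusted p of up to 0.194. Cdca2 was well above background on only 1 SHR and 3 SHRSP arrays. It was called in 3 of 10 other settings of scaling, background correction, filter and fit. The Espl1 call was lost without any array except SHR replicate 3, with an adjusted p of up to 0.211, and Espl1 was called in 3 of 11 such settings. The list's median stayed between 0.60 and 0.91 when each array was left out, and was 0.68, with 35 of 36 members higher, without SHR replicate 1 and SHRSP replicate 4. SHR replicate 1, the array low in smooth muscle signal, had the lowest mean of the cell cycle list, and without that array the list's median was 0.60. The 14 measured inhibitors of the cell cycle had a median of -0.02 and none was called.

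Genes known to respond to glucocorticoids were lower in SHRSP. Of 22 measured members 19 had a lower mean, against 52.6% of all genes tested, with a median difference of -0.59. Depp1 and Tsc22d3 were called, 2 of 22 against 0.152% of all genes called lower. At an unadjusted p under 0.05, 7 members were lower, against 1.54% of all genes. The 4 members that were lower without overlap compare with 1.86% of all genes. As this list was chosen with earlier results of these data known, these shares cannot be read as enrichment. The mean level of the list was 0.19, 0.50, 0.61 and 0.62 in SHR and -0.43, -0.09, 0.07 and 0.13 in SHRSP, and -0.40 to -0.31 in WKY. SHR lay above SHRSP on every array, though SHR replicate 1 and SHRSP replicate 4 nearly met, and WKY lay within the SHRSP range. Without SHR replicate 1 and SHRSP replicate 4 the median was -0.82.

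Depp1, a gene induced by FoxO factors and steroids, had levels of 0.99, 1.22, 1.42 and 1.74 in SHR and -1.17, -0.96, 0.01 and 0.50 in SHRSP, and fell by 1.75 ± 0.31 (limma adjusted p = 0.0109). Its call was lost without SHR replicate 4 or SHRSP replicate 1 or 2, with an adjusted p of up to 0.0649. Tsc22d3, which encodes the glucocorticoid-induced leucine zipper, had levels of 2.38, 2.15, 2.67 and 2.76 in SHR and 1.15, 1.60, 1.64 and 1.96 in SHRSP, and fell by 0.90 ± 0.18 (limma adjusted p = 0.0248). Its call was lost without SHR replicate 3 or 4 or SHRSP replicate 1, 2 or 3, with an adjusted p of up to 0.126.

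Other responsive genes differed the same way without passing the test. The kinase gene Map3k6 differed by -0.78 (limma adjusted p = 0.0776), the metallothionein gene Mt2A by -0.84, the lipocalin gene Lcn2 by -0.81 and the receptor co-chaperone gene Fkbp5 by -0.66. The clock gene Per1 differed by 0.08, and Angptl4 by 0.16. The receptor gene Nr3c1 differed by 0.08 ± 0.18, and none of the 9 measured genes of steroid receptors and access was called. Circadian clock genes had a median of -0.03 with 7 of 14 higher, which became -0.24 with 5 higher without SHR replicate 1 and SHRSP replicate 4. Immediate early genes had a median of 0.09, which became 0.00.

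**Figure D4:**
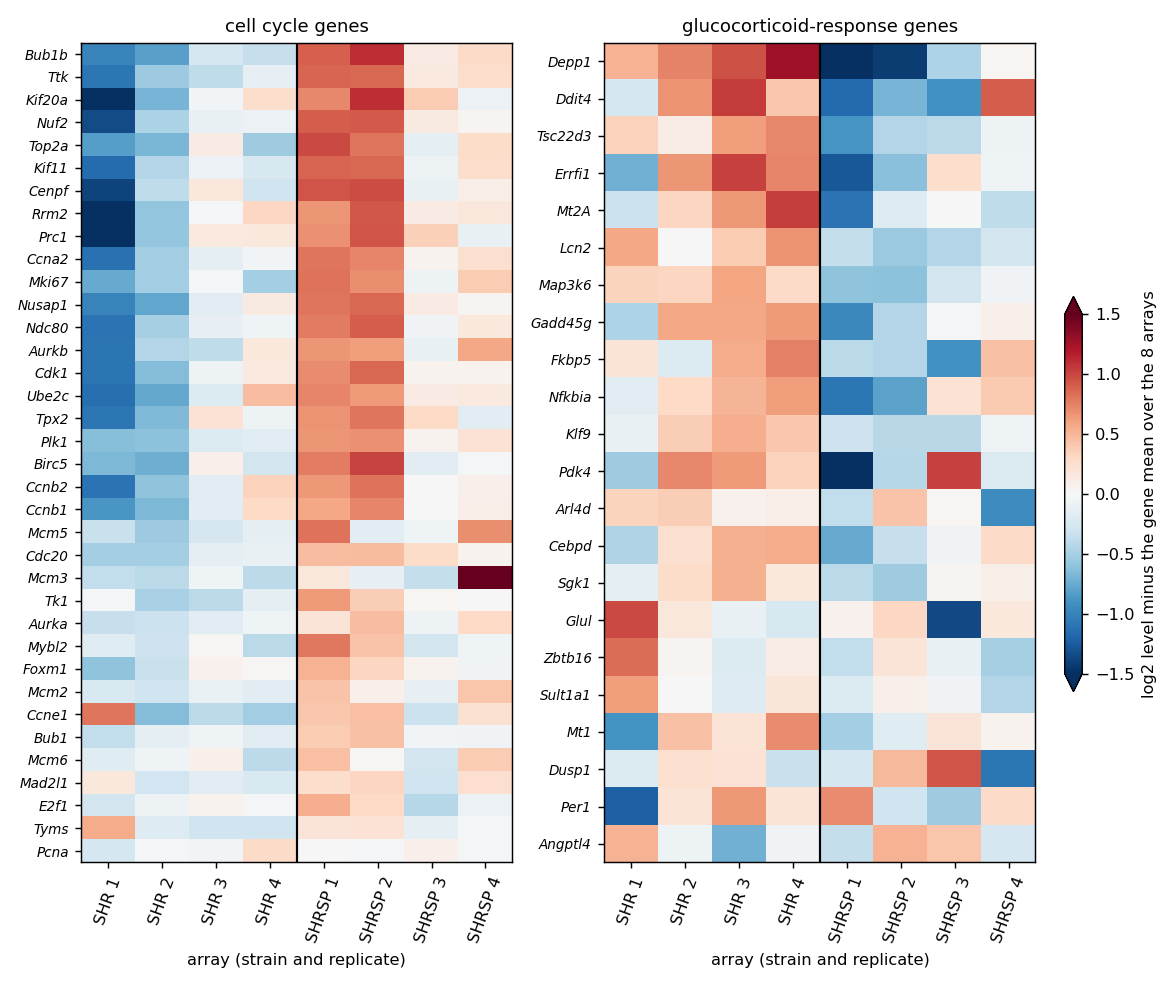
Each cell shows the log2 level of a gene (vertical axis) on 1 of the 8 arrays (horizontal axis) minus that gene's mean over the 8 arrays, for 36 cell cycle genes and 22 glucocorticoid-response genes. Red is above the gene mean and blue below; SHRSP replicates 1 and 2 are highest for most cell cycle genes, and 19 of the 22 responsive genes have a lower mean in SHRSP.

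Some further lists had most means on 1 side with no member called, while the mean levels of their arrays overlapped between the strains. Of all genes tested, 47.4% had a higher mean in SHRSP. All 17 measured genes of cholesterol synthesis had a higher mean in SHRSP, with a median of 0.26; the largest was Dhcr7, the last enzyme of the pathway, at 1.41 (limma adjusted p = 0.325). Of 17 interferon-response genes 16 were higher, with a median of 0.19 that became 0.57 without SHR replicate 1 and SHRSP replicate 4, and Rsad2 at 1.00 and Mx1 at 0.85 were the largest. In each of these lists 1 of the 17 members had an unadjusted p under 0.05, against 3.56% of all genes tested. Chemokines and cytokines had a median of 0.29 with 15 of 20 higher, which became 0.05 with 12 of 20 without SHR replicate 1 and SHRSP replicate 4, the second being the array rich in lymphocyte signal. Cxcl10 was higher by 1.32 and the endothelial selectin gene Selp lower by 0.87, neither being called. Endothelial markers had a median of -0.02, extracellular matrix genes 0.09, potassium channels -0.01 and calcium-handling genes 0.03, with no called member in any of these 4 lists. Without the same 2 arrays these medians were 0.12, 0.02, -0.03 and -0.13. A list of genes linked to hypertension or stroke traits had a median of 0.00 over 22 members. Of these Agtrap and Ephx2 were called, 2 of 22 against 0.360% of all genes. The list was chosen with earlier results of these data known, so this share cannot be read as enrichment. Stim1 differed by -0.23 ± 0.17, Cd36 by -0.05 ± 0.33 and Gstm1 by 0.02 ± 0.18.

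Called genes often had other called genes as neighbours. Of the 57 called genes with a position on an assembled chromosome of rn4, 21 (36.8%) lay within 1 Mb of another called gene, against 7.04% of the uncalled genes within 1 Mb of a called one. Chromosome 10 held 11 of the 57 (19.3%), against 8.02% of the tested genes, and chromosomes 8, 12, 13 and 14 held none. The 21 genes formed 7 runs. Most tested genes inside the runs were not called.

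The run on chromosome 1 spanned 1324 kb (chr1:78216455-79540911) and held 5 called genes of 54 tested. Micb and Pglyrp1 were neighbours among the tested genes and were both lower in SHRSP, as were Opa3, a mitochondrial gene mutated in optic atrophy, at -0.70, and Zfp108, at least 1.98-fold. At its far end the unnamed transcript FQ212058 rose by 4.22 ± 0.28, from -4.86 ± 0.37 in SHR to -0.64 ± 0.33 in SHRSP, with WKY at -5.59 ± 0.44. The 49 uncalled genes had a median of 0.02. The Opa3 call was lost without SHR replicate 2, 3 or 4 or SHRSP replicate 1, 2 or 4, with an adjusted p of up to 0.194.

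On chromosome 10 the run at chr10:10459940-11926243 held Eef2kmt, a methyltransferase of elongation factor 2, at 1.00, Hmox2 at -0.61, Nmral1 at 0.58 and Zfp597 at 2.83 among 33 tested genes. Of these Hmox2, the constitutive heme oxygenase, and Nmral1, a redox sensor, lay 65.0 kb apart and differed in opposite directions. Their calls were lost without some arrays: that of Eef2kmt without SHR replicate 2 or SHRSP replicate 2 (adjusted p up to 0.0503), that of Hmox2 without SHR replicate 2 or 4 or SHRSP replicate 1, 2 or 4 (up to 0.107), and that of Nmral1 without SHR replicate 1, 2 or 3 or SHRSP replicate 1, 2 or 3 (up to 0.185). A second run, at chr10:15051356-15559520, held Rgs11, higher, and 81.7 kb from it Hba-a3, lower, with an uncharacterized transcript at least 4.20-fold lower 426 kb before Rgs11. The 26 uncalled genes between them had a median of -0.02. Another run held Sgca and Samd14, both lower and 62.3 kb apart, with Hils1 at 0.45 and Ppp1r9b at 0.08 between them.

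On chromosome 19 the run at chr19:54089508-54736211 was the only one with 3 or more called genes that all differed in 1 direction. It held Nup133, a nuclear pore gene, at 0.59, Abcb10, a mitochondrial heme-pathway transporter gene, at 0.94, and Cog2, a Golgi tether gene, at 0.82, while the 5 uncalled genes among them had a median of -0.21. Abcb10 levels were -0.54, -0.32, -0.44 and -0.18 in SHR and 0.63, 0.55, 0.78 and 0.30 in SHRSP, and the second Cog2 probe differed by 0.41. The Cog2 call was lost in the fit of the 8 arrays alone (limma adjusted p = 0.0639). The Nup133 call was lost without any array except SHR replicate 1, with an adjusted p of up to 0.183. On chromosome 18, probes only 167 bases apart by their starts went opposite ways. FQ219182, an unnamed transcript, rose by 0.73 and TC592821, annotated as like Wdr36, fell by 1.48, and a further TC592821 probe differed by -1.36. The FQ219182 call was lost without SHR replicate 4 (adjusted p = 0.0590). On chromosome 7, Tob2, an antiproliferative gene, at -0.85 and Serhl2 at 1.85 lay 946 kb apart, and the Tob2 call was lost without SHR replicate 1, 2 or 4 or SHRSP replicate 1 or 2 (adjusted p up to 0.121).

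In the fit of the 8 arrays alone the calls of Rhd, Pcdhga8, Vwa7, Depp1, Tsc22d3, Cdca2, Espl1, Opa3, Eef2kmt, Hmox2, Nmral1, Nup133 and Tob2 were lost too, with an adjusted p between 0.0598 for Eef2kmt and 0.377 for Nmral1. Of the 59 genes, 26 were called under every other scaling, background correction, filter and fit that tested them. Depp1 was called in 9 of 11 such settings, Rhd, Tsc22d3 and Tob2 in 8, and Hmox2 in 7. Opa3 and Nmral1 were called in 6 of 11, and Nup133 and Msr1 in 5. Pcdhga8 was called in 8 of 10 and Vwa7 in 2 of 10.

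**Figure D5:**
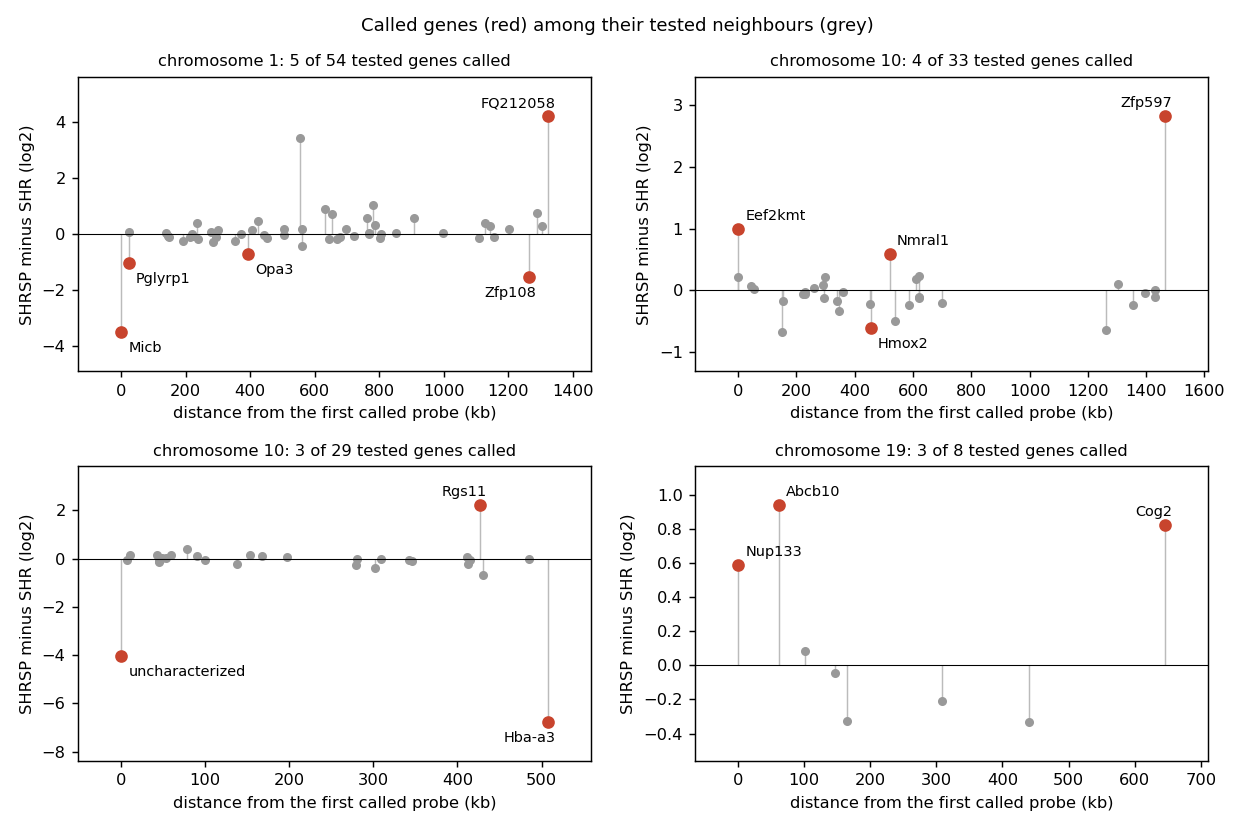
SHRSP minus SHR difference (vertical axis, log2) of every tested gene in 4 runs of called genes, by distance from the first called probe of the run (horizontal axis, kb); red points are called genes and grey points are not. On chromosome 10 Rgs11 at 2.21 and Hba-a3 at -6.76 stand 81.7 kb apart; of the uncalled genes between them Luc7l is at 0.01 and Fam234a at -0.66.

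Set beside WKY, either strain could be the one that stood apart. For 38 of the 59 called genes the WKY mean lay nearer to SHR and for 21 nearer to SHRSP, with WKY between the strains for 32. Of the 34 genes higher in SHRSP 21 lay nearer to SHR in WKY, and of the 25 lower genes 17 did. The WKY arrays of Agtrap, Hba-a3, Ephx2, Micb, Sgca, Zfp597 and Rgs11 overlapped those of SHR and not those of SHRSP. Those of Vegfb, Pxmp4, Serhl2, Rhd, Lilrb3l and Yipf4 overlapped SHRSP and not SHR. Yipf4 was at 1.10 ± 0.19 in SHR, -0.02 ± 0.20 in SHRSP and 0.09 ± 0.19 in WKY.

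Some probes were detected in 1 strain alone. Of 30367 probes, 24 were well above background on all SHR arrays and no SHRSP array. Another 8 were so on all SHRSP arrays and no SHR array, and 13 of the 32 belonged to called genes. Lower bounds on the fold ran from 1.11 to 139 over the 32, so detection in 1 strain need not mean a large difference. By the weaker flag of a positive and significant signal the counts were 26 and 20. Both probes of Sult1b1, a sulfotransferase that acts on thyroid hormones, were detected in SHRSP alone, at least 3.89-fold (limma adjusted p = 0.0803) and 4.37-fold higher, the second probe not being tested. Neither this gene nor Zfp296, at least 5.28-fold higher (limma adjusted p = 0.296), passed the test.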

How the data were processed

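Agilent 60-base rat arrays carried Cy3-labelled total RNA. The submitters' processing notes name Feature Extraction 10.7.3.1 as the scanner software; the deposited signal intensity of each spot is background-subtracted, per the file headers; the deposited value table holds the same intensity, unscaled (largest relative difference 0). The spot flags (coded 0 or 1 under another unit) are the software's, per the file headers. For this report control spots and outlier-flagged spots were left out, log2 intensity minus each array's 75th percentile (627.6 to 1193 on the 8 arrays) was taken, and spots of a probe were averaged. A probe was kept if any of the 5 groups had it well above background on all 4 of its arrays, and the brightest kept probe of a gene was tested (16410 genes). Of 30367 probes 18754 matched a current RefSeq symbol by accession (GRCr8 table), and the rest kept the file's name; positions come from the array files' own annotation (rn4).

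The model, a mean for each group over all 20 arrays with moderated 2-sided tests (lmFit, eBayes), was run with limma 3.58.1 under R 4.3.3. A gene is "called" at a Benjamini-Hochberg adjusted p under 0.05. "At least" folds set the brighter strain's mean against the higher of the dim probe's signal and the lowest signal well above background. Tested on simulated data for this comparison, 54 of 100 genes changed by 1 on the log2 scale and 88 of 100 changed by 2 were called. Of the 16210 unchanged genes 12 were called. The simulated noise was independent between genes, which the cell mixture of real arrays need not be. The members and gene lists were chosen with earlier results of these data known. Named genes were the 12 largest non-overlapping called differences in each direction with a symbol, up to 4 called or else 2 largest members of each of 43 lists, some fixed genes, and called genes in runs of 3 or more, each within 1 Mb of the next; of these, the ones bearing on the account are given, and genes outside the rule are said to be so or were named as neighbours. The alternatives tried were other scalings, background corrections, filters, fits and left-out arrays. P-values measure the spread between these arrays, whose number limits the precision.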

Additional observations from a re-analysis of the deposited data

Results flagged for a closer look

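Tests on the mean levels of 43 gene lists and the levels of called genes in each strain numbered 152. In 7 of them, the gap of 1 array to the nearest other took up most of the range of the 4 arrays (Dixon's test, 95% level). Chance gives about 1 in 20 over independent tests. These tests share arrays, and some lists share genes, so the count cannot be weighed against chance. Of the 7, SHR replicate 1 accounted for 5 and SHRSP replicate 4 for 0. SHR replicate 1 was low for contractile smooth muscle (2.18, others 4.08 to 4.40), extracellular matrix (1.78, others 2.69 to 2.77) and nitric oxide, cGMP and natriuretic peptide genes (-0.80, others -0.17 to -0.10). It was high for redox and glutathione enzymes (1.42, others 0.80 to 0.90) and mesothelium (-0.95, others -3.79 to -3.42). SHR replicate 4 was low for glucocorticoid receptor and steroid access genes (-0.82, others -0.70 to -0.68) and for Vwa7 (-6.25, others -5.03 to -4.84). Their part in the strain differences was tested only by leaving these arrays out.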

How the results depend on the processing

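No called gene reversed its direction under any setting run. The count of 59 called genes (34 higher, 25 lower) was 39 on unscaled signals (15 lower), 31 where probes had to be well above background on all 8 arrays (20 higher, 11 lower, of 14896 genes tested), 39 in a fit of the 8 arrays alone (20 higher) and 815 with array weights (526 higher, 289 lower); the cause of the last was not tested. With 1 array left out the count ran from 38 to 55, with 21 to 32 higher and 17 to 24 lower. Deviations of same-numbered SHR and SHRSP arrays correlated at -0.229 to -0.113, so the numbers do not pair them; with the replicate number as a block 51 genes were called, 48 of them among the 59. The slide as a random block could not be fitted, because each group lies on 1 slide. The cell cycle median was 0.41 with normexp and quantile normalization, and the glucocorticoid median ran from -0.72 to -0.42 with 1 array left out and was -0.82 without SHR replicate 1 and SHRSP replicate 4, a choice made after seeing the data. Other scalings moved the median of all genes to between -0.10 (array median) and 0.17 (unscaled). The positive and significant flag gave 20 probes in SHRSP alone, and 50.9% of called genes lay within 5 Mb of another, against 22.3% of uncalled genes.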

Other observations

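A few large differences did not pass the test. Ckm, muscle creatine kinase, was at -4.50 on average in SHR and -1.06 in SHRSP without overlap (3.44 ± 0.96, limma adjusted p = 0.303), and it lies inside the chromosome 1 run between Opa3 and Zfp108, while the other 7 measured striated muscle genes lay between -0.45 and 0.48. Csap1 was detected on all SHR arrays and no SHRSP array, at least 7.47-fold lower (limma adjusted p = 0.111).

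Called genes that belong to no list included Hes1 and Mterf1. Hes1, a repressor downstream of Notch, rose by 1.32 and Mterf1, a factor of mitochondrial transcription, by 1.07, both called whichever of the 8 arrays was left out. Hes1 levels were -3.18, -2.99, -2.90 and -2.53 in SHR and -1.32, -1.45, -1.62 and -1.94 in SHRSP, with no overlap. Csap1, Hes1 and Mterf1 were chosen after their values were seen.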
